A study of Homo sapiens with 8 samples.

Results

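The guides against the mitochondrial protein import machinery were the 186 single guide RNAs (sgRNAs) whose target gene carries a TOMM or TIMM symbol with a number or is PMPCA, PMPCB, GRPEL1, PAM16, DNAJC19, SAMM50, MTX1 or MTX2. They covered 31 genes with 6 guides each, of 119461 guides against 18913 genes and 1795 microRNAs in the combined parts A and B of the human GeCKOv2 knockout library. The screen used MB157R cells, a triple-negative breast cancer line derived from MB157 with resistance to γ-secretase inhibitors and a stable Cas9 transgene. All libraries came from 1 transduced and puromycin-selected pool. It gave 3 cultures with the γ-secretase inhibitor LY3039478 at 10 µM (GSI), 3 cultures with DMSO as the vehicle, both kept to day 14, and 2 aliquots taken at T0, before that split. A guide that becomes rarer in a culture is the usual readout for a gene whose loss slows growth or survival.

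Most mitochondrial proteins are made in the cytosol and carry targeting signals. The outer membrane translocase (TOM) is their common entry gate, from which β-barrel proteins pass to the sorting and assembly machinery (SAM), presequence proteins to the inner membrane translocase TIM23 and its import motor, and carrier proteins through small chaperones to TIM22. In the matrix, the mitochondrial processing peptidase cuts off the presequence. Because the respiratory chain, the mitochondrial ribosome and iron-sulfur cluster assembly all depend on imported proteins, several of these genes are known to be needed for growth in many cell lines.

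The depth of these guides set what could be seen. Total depth was 12.1 M to 18.2 M counts per library (M, 1e+06), and the median raw count of an import guide was 46.5 to 62.5 in GSI libraries, 54 to 84.5 in DMSO libraries, and 92.5 and 64.5 in T0 replicates 1 and 2. In GSI replicate 1, a single guide against VPS33B, which is no import gene, took 38.8% of all counts. At T0, 14 and 35 of the 186 guides had no count in replicates 1 and 2 (7.53% and 18.8%, against 5.12% and 11.5% of all guides). In GSI libraries 5 to 7 had none (2.69% to 3.76%, against 0.738% to 2.4%), and in DMSO libraries 6 to 11 (3.23% to 5.91%, against 2.64% to 3.94%). The normalized counts of the 2 T0 aliquots differed by over 4-fold for 76 of the 186 guides (40.9%, against 33.5% of all guides). All 9 import guides with no count in either T0 aliquot had counts at day 14, as did 2558 of the 2635 such guides in the whole library. After guides with a mean raw count under 10 were left out, 177 of the 186 were tested, and TOMM20, an import receptor of the TOM complex, kept only 3 guides and had no gene test. Guides with almost no count at T0 passed this filter only through their day-14 counts. Against T0 their direction was thus largely fixed in advance, and their p-values are no support for a rise. The p-values measure the spread between cultures, or between aliquots, of 1 pool of cells.

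The comparison of GSI with DMSO asks which knockouts changed the fitness of resistant cells under the inhibitor. The import guides as a group differed little between inhibitor and vehicle. Their median log2 fold change was -0.06, against -0.02 over all guides, and 97 of the 177 lay below 0 (54.8%, against 51.4% of all guides). With library totals as size factors the median was -0.29, against -0.22 over all guides. At an unadjusted p under 0.05 (edgeR's quasi-likelihood test), 5 guides were lower in GSI cultures (2.82%, against a background of 1.46%) and 1 was higher (0.565%, against 1.55%). With non-targeting controls as the scale they were 3 and 2, with the median of all guides at 0.04. The share of all guides was not taken under that scale. No guide passed an adjusted p of 0.05 by edgeR, and none did by DESeq2. By robust rank aggregation (RRA), which asks whether the guides of a gene rank unusually low or high among all guides, 4 of the 30 tested genes had an unadjusted p under 0.05 on the low side (13.3%, against 5.06% of all genes) and 1 on the high side (3.33%, against 4.99%). None was called after adjustment over 18570 genes. By limma on gene means of the log2 counts, TIMM13 was the 1 gene lower at an unadjusted p under 0.05 (background 1.01%) and TIMM10 the 1 gene higher (background 3.82%), and no import gene was called after adjustment.

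The lowest of these p-values belonged to a small chaperone of the intermembrane space, TIMM13 (GRCh38 chr19:2425625-2427586), which escorts hydrophobic precursors as a partner of TIMM8A. Its 6 guides averaged 29.9, 34.6 and 37.4 normalized counts per guide in GSI replicates 1 to 3, against 70.9, 36.7 and 82.6 in DMSO replicates 1 to 3. The lowest DMSO culture lay just under the highest GSI culture, so the groups overlapped. All 6 guides lay below 0, with a median log2 fold change of -1.10 (SD over guides 0.87), an unadjusted exact RRA p of 0.0116 and an adjusted p of 0.963. Guide HGLibB_49438 carried the lowest single p of the gene, with 47.1, 83.5 and 11.5 normalized counts in GSI cultures against 171, 101 and 113 in DMSO cultures (log2 fold change -1.43 ± 0.68 SE, unadjusted p = 0.0472, edgeR). At T0 this guide had 1 and 0 raw counts, and HGLibA_49500 (log2 fold change -1.895) had 0 in both aliquots. The other guides of the gene had counts in at least 1 aliquot. HGLibA_49500 had 15, 17 and 0 raw counts in GSI cultures against 48, 23 and 46 in DMSO cultures. It passed the count filter only through DMSO, the group where it was high, so the filter favoured its place below 0. HGLibB_49439, with 4, 3 and 4 against 43, 0 and 7, also needed its DMSO counts to pass. The gene p includes both guides, and neither is support for a difference.

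MTX2 and TOMM5 showed smaller differences. MTX2 (chr2:176269395-176338025) is a metaxin of the outer membrane assembly machinery, and its guides averaged 148, 144 and 160 normalized counts in GSI cultures against 215, 223 and 198 in DMSO cultures. TOMM5 (chr9:37582646-37592604), a small subunit of the TOM complex, had 81.0, 105 and 96.8 in GSI cultures against 127, 121 and 138 in DMSO cultures. In both genes every GSI culture lay below every DMSO culture, which was also true of PAM16, a J-like regulator of the import motor, and of no other import gene on the low side. This is 3 of 30 genes (10%, against 5.85% of all genes), and on the high side it was 0 of 30 (against 3.7%). The median log2 fold changes were -0.41 (SD over guides 0.46, unadjusted exact RRA p = 0.0168, adjusted p = 0.963) for MTX2 and -0.31 (SD 0.77, unadjusted p = 0.0314, adjusted p = 0.972) for TOMM5. Relative to T0, the median of MTX2 was 0.78 in DMSO and 0.03 in GSI cultures, and that of TOMM5 was 0.77 and 0.32. Neither median was thus below T0 in GSI cultures.

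TIMM50 and TIMM10 were named by the same rule for less uniform sets of guides. TIMM50 (chr19:39480412-39493785), the presequence receptor of TIM23, had an unadjusted exact RRA p of 0.0411 on the low side although its median log2 fold change was 0.14, since 2 of its 6 guides lay low and 4 lay above 0. Guide HGLibB_49459 had 62.0, 41.3 and 48.0 normalized counts in GSI cultures against 196, 136 and 105 in DMSO cultures (log2 fold change -1.53 ± 0.57 SE, unadjusted p = 0.0134, edgeR). TIMM10 (chr11:57528464-57530803), the partner of TIMM9 in the chaperone hexamer for carrier proteins, was the one gene on the high side. All 5 of its tested guides lay above 0 (median log2 fold change 0.75, SD 1.63, unadjusted exact RRA p = 0.0195, adjusted p = 0.968), and its mean per guide was 89.7, 52.6 and 70.0 in GSI cultures against 33.3, 63.9 and 43.97 in DMSO cultures, which overlapped. The partners of these chaperones did not share those positions, since TIMM9 had a median of -0.59 (unadjusted p = 0.133 on the low side) and TIMM8A one of 0.22 (unadjusted p = 0.342 on the high side). Without GSI replicate 1 the median of TIMM10 was 0.28, and without DMSO replicate 1 that of TIMM13 was -0.66. That of TOMM5 was -0.56 without DMSO replicate 2 and -0.49 without GSI replicate 3. Leaving out GSI replicate 1 left 1 import gene on the low side, and leaving out DMSO replicate 1 or DMSO replicate 2 left 2. The share of all genes was not taken in these runs, so the whole library may have moved with them.

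The comparison of DMSO with T0 asks which knockouts were lost or gained over 14 days of growth without inhibitor. It shares its DMSO cultures, with the opposite sign, with the comparison of GSI with DMSO, so a gene's values in both are not independent. The import guides lay on both sides of 0. Their median log2 fold change was -0.06, against 0.00 over all guides, with quartiles of -0.97 and 0.79. With size factors from non-targeting controls the median was -0.31, against -0.26 over all guides. At an unadjusted p under 0.05, 13 guides of 9 genes were lower in DMSO cultures (7.34%, against 3.55% of all guides) and 10 guides of 8 genes were higher (5.65%, against 4.19%). With size factors from non-targeting controls these counts were 18 and 8, with the median of all guides at -0.26 as given above. The share of all guides was not taken under that scaling. edgeR called none after adjustment, and DESeq2 called 7 lower and 8 higher (3.95% and 4.52%, against 2.12% and 3.61% of all guides). All 13 lower guides had at least 10 raw counts in both T0 aliquots, as did 4011 of all 4151 lower guides. A guide scarce at T0 can hardly be called lower than T0, so this was nearly fixed in advance. Of the 10 higher ones, 6 had under 10 raw counts in both and 3 in 1 of them, and of all 4901 higher guides 1982 had under 10 in both (40.4%). Without T0 replicate 1 the median of the import guides was 0.33, against 0.20 over all guides, and 45 were higher (25.4%, against 17.4%). Without T0 replicate 2 the median was -0.02, against 0.09, and 20 were higher (11.3%, against 9.62%).

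The lowest gene p belonged to the processing peptidase. PMPCA (chr9:136410630-136427992), its α-subunit, averaged 43.1, 78.4 and 60.6 normalized counts per guide in DMSO replicates 1 to 3, against 169 and 153 in T0 replicates 1 and 2. Every DMSO culture was thus under every T0 aliquot, and all 6 guides lay below 0. The median log2 fold change was -1.52 (SD over guides 1.47). The unadjusted exact RRA p of 5.74e-05 ranked 11 of 18570 genes on the low side, and the adjusted p of 0.0913 missed the threshold. Limma on the gene means gave a log2 difference of -2.09 with an unadjusted p of 0.000811 and an adjusted p of 0.123. The guides differed in how far they fell short of T0. HGLibA_37327 had 8.77, 0 and 0 normalized counts in DMSO cultures against 79.5 and 96.8 at T0, while HGLibB_37277 had 134, 148 and 109 against 361 and 146. PMPCB (chr7:103297407-103331818), the catalytic β-subunit, had a median of -0.86 with 4 of 6 guides below 0 (SD 2.21, unadjusted exact RRA p = 0.255), and its means of 77.1, 77.3 and 55.4 in DMSO cultures were also all below 99.0 and 138 at T0. Over both subunits, 10 of 12 guides lay below 0, with a median of -1.19.

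With TIMM50, TIMM23 and TOMM22, the genes on the low side at an unadjusted exact RRA p under 0.05 were 4 of 30 (13.3%, against 6.12% of all genes). TIMM50 had a median log2 fold change of -1.10 (SD over guides 3.79, unadjusted p = 0.00384, adjusted p = 0.366), with means of 123, 117 and 66.3 in DMSO cultures against 148 and 255 at T0. TIMM23 (chr10:45972489-46003742), the channel subunit of TIM23, had one of -1.04 (SD 1.52, unadjusted p = 0.0123, adjusted p = 0.544). TOMM22 (chr22:38681957-38685421), the central receptor of the TOM complex, had one of -1.15 (SD 1.44, unadjusted p = 0.0453, adjusted p = 0.799). TOMM22 averaged 97.0, 68.3 and 63.8 in DMSO cultures against 125 and 143 at T0, and TIMM23 had 96.8, 69.2 and 78.2 against 170 and 106, so in neither gene did the groups overlap. In all, 6 genes lay wholly below T0, namely these 4, PMPCB and TIMM10 (20%, against 17.1% of all genes). After adjustment over all genes, RRA called 0 import genes on the low side (background 0.0323%) and limma called 0 (background 0.00539%). At an unadjusted p under 0.05, limma placed 2 import genes low, PMPCA and TOMM22 (6.67%, against 3.31% of all genes), and 5 high, namely TIMM17A, TIMM8B, TIMM13, TOMM5 and MTX2 (16.7%, against 13%). Without T0 replicate 1 the median of TIMM23 was -0.0032, and without T0 replicate 2 that of TIMM50 was -0.30 and that of TOMM22 -0.76, while that of PMPCA stayed between -2.04 and -1.23 whichever library was left out. The adjusted RRA p of PMPCA was less stable, at 0.0787 without DMSO replicate 3 and 0.445 with a minimum mean count of 50.

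Within TIMM23 and TIMM50 the guides split. TIMM23 guide HGLibA_49513 had 25.2, 9.03 and 5.70 normalized counts in DMSO cultures against 99.6 and 163 at T0, while HGLibB_49455 had 459, 301 and 326 against 390 and 246. TIMM50 guide HGLibA_49520 had 116, 101 and 36.5 in DMSO cultures against 293 and 380 at T0 (log2 fold change -1.99 ± 0.63 SE, unadjusted p = 0.011, edgeR). Guide HGLibA_49519 of the same gene ran the other way. It had 96.4, 64.1 and 43.3 normalized counts in DMSO cultures against 0.837 and 0 at T0, where 1 raw count in all was found, so the ratio of 153 has a counting interval of 27.1 to 6070 (95%, exact binomial; unadjusted p = 0.00566, edgeR). In GRCh38 with GENCODE release 44, 42 of 89 candidate Cas9 sites in the coding exons of TIMM23 (20 bases before an NGG) occur unchanged elsewhere (47.2%), chiefly in its near-identical copy TIMM23B, and for TOMM22 the share is 24.7%, for PMPCA 13.4% and for TIMM50 0.529%. Such copies were not confined to these genes. Over 10% of candidate sites had one in 14 of the 31 import genes, with 53.1% for TIMM8B and 2.6% for TIMM17A. Which of the screened guides lie on such sites was not tested, and the sequences of the guides were not analysed here.

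On the high side, TIMM17A had the lowest p among the import genes. TIMM17A (chr1:201955503-201970664) is one of the paralogous TIM17 subunits of the TIM23 translocase. It averaged 104, 140 and 150 normalized counts per guide in DMSO cultures, against 62.8 and 28.5 at T0, so every culture exceeded both aliquots. T0 replicate 2 was the lower of the pair, and leaving it out gave a median log2 fold change of 1.24, against 2.45 without T0 replicate 1. All 6 guides lay above 0, with a median log2 fold change of 1.63 (SD over guides 0.81, unadjusted exact RRA p = 0.000749 with rank 21 of 18570, adjusted p = 0.634). Guide HGLibA_49501 had 297, 230 and 272 normalized counts in DMSO cultures against 110 and 82.6 at T0 (log2 fold change 1.46 ± 0.55 SE, unadjusted p = 0.0253, edgeR). The paralogue TIMM17B had a median of 0.11 with 2 of 6 guides below 0 (unadjusted p = 0.639 on the high side).

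The other genes on the high side rested on guides that were nearly missing at T0. They were TIMM8B, TIMM13 and TOMM34, which with TIMM17A made 4 of 30 (13.3%, against 5.3% of all genes). A guide at 0 in both T0 aliquots passed the count filter only through its day-14 counts, so it could stand only above T0. TIMM8B (chr11:112084800-112086798), a small intermembrane chaperone, had a median log2 fold change of 1.73 (SD over guides 3.54, unadjusted exact RRA p = 0.0345, adjusted p = 0.919). One of its 5 tested guides, HGLibB_49466, was at 0 in both T0 aliquots and at 0, 7.22 and 130 normalized counts in DMSO cultures. The value of that guide thus rested mainly on DMSO replicate 3. Guide HGLibA_49525 had 99.7, 134 and 155 in DMSO cultures against 20.9 and 0.949 at T0 (log2 fold change 3.54 ± 1.325 SE, unadjusted p = 0.0238, edgeR). Of the 5 guides, 1 lay below 0, and without DMSO replicate 3 the median of TIMM8B was 1.72. TIMM13 had a median of only 0.04 (SD 4.41, unadjusted p = 0.00795, adjusted p = 0.828), because 2 of its guides were far above T0 and 3 were below it. Guide HGLibB_49438 had 171, 101 and 113 normalized counts in DMSO cultures against 0.837 and 0 at T0 (ratio 285, counting interval 50.8 to 11300, unadjusted p = 0.000482, edgeR), and HGLibA_49500 was at least 15.7-fold higher, with both T0 aliquots at 0 and a floor of 3 counts per library. TOMM34 (chr20:44942130-44960397), a cytosolic cochaperone, had a median of -0.18 (SD 2.25, unadjusted p = 0.0252, adjusted p = 0.916) and owed its place to HGLibA_50965, at 136, 330 and 128 in DMSO cultures against 13.4 and 5.69 at T0 (log2 fold change 4.35 ± 0.98 SE, unadjusted p = 0.00135, edgeR). The medians of TIMM13 and TOMM34 changed sign under other settings, and without T0 replicate 1 that of TIMM8B was 0.79.

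Single guides could differ from the rest of their gene. Guide HGLibB_20344 against GRPEL1, the nucleotide exchange factor of mitochondrial HSP70, had 50.4, 33.4 and 94.5 normalized counts in DMSO cultures and 0 in both T0 aliquots, at least 22.2-fold higher, while the median of the gene was 0.32. With no count at T0, this guide passed the count filter only through its day-14 counts, so its direction was fixed in advance. Guide HGLibA_49492 against TIMM10 stood low, with 7.67, 21.7 and 51.3 in DMSO cultures against 234 and 243 at T0 (log2 fold change -3.15 ± 0.91 SE, unadjusted p = 0.00636, edgeR). The other 4 tested guides of TIMM10 had log2 fold changes of -4.90, 0.70, -0.15 and 2.08.

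The comparison of GSI with T0 shares its T0 aliquots with the one above, so its values are not an independent repeat of it. The median of the import guides was -0.21, against -0.02 over all guides. At an unadjusted p under 0.05, 16 guides of 14 genes were lower in GSI cultures (9.04%, against 3.99% of all guides) and 11 guides of 11 genes were higher (6.21%, against 4.72%). With size factors from non-targeting controls the counts were 21 and 7, with the median of all guides at -0.22. The share of all guides was not taken under that scaling. edgeR called none after adjustment, and DESeq2 called 10 lower and 9 higher (5.65% and 5.08%, against 2.49% and 4.29%). Of the 11 higher guides, 6 had under 10 raw counts in both T0 aliquots (54.5%, against 46.7% of all higher guides). None of the 16 lower ones had under 10 in either, which was also true of 4604 of all 4660 lower guides. The median over the import guides per library, relative to the mean of T0, was -0.28 ± 0.19 in GSI cultures (SD, n = 3) and -0.07 ± 0.17 in DMSO cultures (n = 3), against a spread of 0.21 between the T0 aliquots (SD, n = 2). These shifts were thus close to the spread at T0. Without T0 replicate 1 the median of the import guides was 0.20, against 0.17 over all guides, and without T0 replicate 2 it was -0.15, against 0.07.

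PMPCA, TIMM50 and TOMM22 were the 3 genes on the low side (10%, against 5.69% of all genes). PMPCA averaged 65.3, 80.0 and 76.2 normalized counts per guide in GSI cultures, against the 169 and 153 of T0, with all 6 guides below 0 (median log2 fold change -1.45, SD over guides 0.71, unadjusted exact RRA p = 0.00161, adjusted p = 0.398). TOMM22 averaged 71.4, 42.9 and 49.4 in GSI cultures against 125 and 143 at T0, also with all 6 guides below 0 (median -1.56, SD 1.25, unadjusted p = 0.00743, adjusted p = 0.567). TIMM50 had 92.7, 111 and 84.8 against 148 and 255, with 5 of 6 guides below 0 (median -1.25, SD 3.50, unadjusted p = 0.00216, adjusted p = 0.411). With PAM16, TIMM9 and TOMM40, the pore of the TOM complex, they were the 6 genes whose GSI cultures all lay under T0 (20%, against 19.2% of all genes). For PMPCA the direct comparison of GSI with DMSO gave a median of 0.11 (SD over guides 1.21, unadjusted p = 0.13 on the high side), and for TOMM22 it gave -0.51 (SD 0.89, unadjusted p = 0.0951 on the low side), so neither gene was shown to differ between inhibitor and vehicle.

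TIMM17A and TIMM8B were the genes on the high side of GSI against T0 (6.67%, against 5.39% of all genes). TIMM17A averaged 88.2, 106 and 146 in GSI cultures against 62.8 and 28.5 at T0, with all 6 guides above 0 (median log2 fold change 1.28, SD over guides 0.69, unadjusted exact RRA p = 0.00296, adjusted p = 0.81). That median was 1.98 without T0 replicate 1 and 1.00 without T0 replicate 2. TIMM8B averaged 106, 67.2 and 116 against 58.7 and 39.3 (median 1.87, SD 2.65, unadjusted p = 0.00509, adjusted p = 0.81). Its guide HGLibB_49466 was at 0 in both T0 aliquots and passed the count filter only through day-14 counts. At T0, HGLibA_49525 had 25 and 1 raw counts and HGLibB_49465 had 2 and 43. The direction was thus partly fixed in advance, and the p is no support for a rise. TIMM17A, TIMM8B and TOMM34 lay wholly above T0 in GSI cultures (10%, against 11.4% of all genes). By limma at an unadjusted p under 0.05, PMPCA and TOMM22 were low (6.67%, against 2.4% of all genes) and TIMM17A, TIMM8B, TOMM34 and TOMM5 high (13.3%, against 17%), with no import gene called after adjustment. The genes wholly above T0 in DMSO cultures were TIMM17A, TIMM8B, MTX2 and TOMM70A, an import receptor now named TOMM70 (13.3%, against 12.4%).

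Among single guides, HGLibB_50898 against TOMM22 had 13.5, 15.9 and 26.1 normalized counts in GSI cultures against 125 and 190 at T0 (log2 fold change -3.08 ± 0.84 SE, unadjusted p = 0.00552, edgeR). HGLibA_37330 against PMPCB had 36.4, 21.5 and 6.27 in GSI cultures against 166 and 222 at T0 (log2 fold change -3.18 ± 0.88 SE, unadjusted p = 0.00609). Both guides were low in every GSI culture. HGLibA_30512 against MTX1, a metaxin like MTX2, stood high in all GSI cultures, at 298, 415 and 174 normalized counts, against 79.5 and 90.2 at T0 (log2 fold change 1.80 ± 0.54 SE, unadjusted p = 0.00941), although the median of MTX1 was -0.86. HGLibA_49519 against TIMM50 again stood far above T0 in GSI cultures, at 79.5, 98.6 and 36.6 normalized counts (ratio 166, counting interval 29.4 to 6580, unadjusted p = 0.00319).

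Ordered by their place in the pathway, the groups had their lowest medians in the peptidase, which holds only 2 genes. The 12 guides against PMPCA and PMPCB had a median of -1.31 in GSI cultures and -1.19 in DMSO cultures relative to T0. For PMPCA alone, already named for its low p, these were -1.45 and -1.52. For PMPCB they were -0.39 and -0.86, with 3 and 4 of its 6 guides below 0. The 37 tested guides against the 7 TOM genes had -0.48 and -0.24, the 30 guides against the 5 TIM23 genes -0.03 and 0.12, and the 24 guides against the 4 genes of the import motor -0.24 and 0.22. The 34 tested guides against the 6 small chaperones had 0.22 and -0.08, the 17 against the SAM genes 0.10 and 0.35, and the 6 against TIMM22 -0.25 and 0.05. The 17 tested guides against the paralogues TOMM20L and TOMM40L and against TOMM34 had -0.37 and -0.09. These are descriptions of small groups with no test. The median SD over the guides of 1 gene was 1.43 for GSI against T0, 1.52 for DMSO against T0 and 0.77 for GSI against DMSO.

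Of the 30 tested genes, 11 had an unadjusted exact RRA p under 0.05 on some side of some comparison, and 19 had none (36.7% with at least 1, against 23.9% of all genes). The 19 include TOMM40, TOMM6, TOMM7 and TOMM70A of the TOM complex, SAMM50, the β-barrel core of the SAM complex, TIMM44, the anchor of the import motor, DNAJC19, its J protein, GRPEL1, TIMM22, the carrier channel, and TIMM9. TOMM40 had a median of -0.23 for GSI and -0.48 for DMSO relative to T0 (unadjusted p = 0.105 and 0.146 on the low side), and 59.9% of its candidate coding sites have an unchanged copy elsewhere. TIMM44 had -0.22 and 0.48 (unadjusted p = 0.311 and 0.236). For TOMM20, the 3 tested guides had medians of -0.89 and -1.26, with means of 44.9, 32.1 and 45.3 normalized counts in GSI cultures, 25.2, 62.9 and 50.9 in DMSO cultures, and 92.6 and 78.5 at T0.

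Import genes outside the rule gave a frame for these values, with 113 tested guides against 19 further genes of import motors, oxidative import, processing and matrix folding. Their median was 0.09 for GSI against DMSO, -0.30 for DMSO against T0 and -0.14 for GSI against T0, with 0, 3 and 2 of the 19 genes low (against 5.06%, 6.12% and 5.69% of all genes) and 2, 0 and 0 high (against 4.99%, 5.3% and 5.39%) at an unadjusted exact RRA p under 0.05. The matrix chaperonin cofactor HSPE1 had the lowest p of the list. Its guides averaged 59.9, 55.6 and 82.5 normalized counts in GSI cultures and 39.5, 53.3 and 65.7 in DMSO cultures, against 181 and 222 at T0, with log2 medians of -1.80 (SD over guides 1.61, unadjusted p = 0.000424) and -2.17 (SD 2.51, unadjusted p = 0.000106). AIFM1, which acts with the oxidative import receptor CHCHD4, was low in DMSO against T0 (median -1.04, unadjusted p = 0.0141) and on the high side for GSI against DMSO (median 0.45, unadjusted p = 0.0482). DNLZ, a partner of mitochondrial HSP70, had medians of -0.24 and -0.15 relative to T0 in DMSO and GSI cultures (unadjusted p = 0.0195 and 0.0342 on the low side) and 0.56 for GSI against DMSO (unadjusted p = 0.0216 on the high side). For AIFM1 and DNLZ the opposite positions rest on the same DMSO cultures and are not separate results. HSPD1, the chaperonin itself (GSI against T0 median -0.35, unadjusted p = 0.0504), and DNAJC15, a J protein of the import motor (GSI against DMSO median 0.43, unadjusted p = 0.0502), did not pass that threshold.

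Other groups of guides in the same libraries give the scale of these medians, with no test of the differences between groups. For DMSO against T0, 16% of the 514 tested guides against cytosolic ribosomal proteins were low at an unadjusted p under 0.05, with a median of -0.79, and 6.19% of the 436 against mitochondrial ribosomal proteins, with a median of -0.31. For the import guides these values were 7.34% and -0.06. Guides against olfactory receptors, which are commonly taken as not needed for growth, had a median of 0.09 with 2.15% low, and non-targeting controls one of 0.25 with 0.801% low. The same order of medians held for GSI against T0 except that the import guides (-0.21) lay level with those against mitochondrial ribosomal proteins (-0.21).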

How the data were processed

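Guide abundance was measured by sequencing of PCR products from genomic DNA. Per the labels, reads were trimmed (bcl2fastq 2.19), checked (FastQC 0.11.5) and counted per sgRNA (MAGeCK 0.5.9.2) by the authors. The deposited raw counts were analysed, and the deposited normalized signal, a raw count divided by 1 constant per library, served as an alternative scaling. Computation used R 4.3.3. A filter at a mean of 10 raw counts per library kept 116852 guides (97.8%) and removed 2609. The guide test was the quasi-likelihood F-test of edgeR 4.0.16 (with limma 3.58.1), with median-ratio size factors and only the compared groups in each fit. One-sided guide p-values were combined per gene by robust rank aggregation with an alpha of 0.25 and exact p-values, for genes with at least 4 tested guides. A gene's log2 fold change is the median over its guides. All p-values were adjusted over the whole table by the Benjamini-Hochberg method. The tests were run first on simulated data. Group means are normalized counts per tested guide. Because PCR reads carried no molecular identifiers, intervals and floors cover counting error only. The genes named had an unadjusted gene p under 0.05 or, for single guides, under 0.01, with up to 3 pathway genes per comparison, and a few further guides were named after their values were seen. The members and gene lists were chosen with earlier results of these data known. Alternatives were other size factors, filters, DESeq2 1.42.0, limma on gene means of log2(normalized count + 1), a joint fit, a replicate block, other rank limits and leaving out each library. Gene positions are from GENCODE release 44 (GRCh38), and the build used to design the guides is not given in the sources used here.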

Additional observations from a re-analysis of the deposited data

How the results depend on the processing

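Every comparison with T0 rests on 2 aliquots whose guide counts differed widely. No import gene reached an adjusted p of 0.05 under any alternative run. The named import genes kept the direction of their median under the alternatives run for each, except TIMM50 (GSI against DMSO), TIMM13 and TOMM34 (DMSO against T0). With a minimum mean count of 50, TIMM10 and TIMM13 (GSI against DMSO) and TIMM13 and TOMM34 (DMSO against T0) had too few guides for a value, and the pathway genes outside the rule were not run. Of 1163 values of the other import genes under alternatives, 169 changed sign. The counts below are given without the shares of all guides or genes, so a change in a count can be shared by the whole library. For GSI against DMSO, the count of lower import guides, 5, was 8 with library totals, DESeq2 or the replicate block, 3 with non-targeting controls and 1 in a joint fit of all libraries, and it was 3 to 5 with 1 library left out. The single higher guide became 2 with non-targeting controls or no filter and 0 with a minimum mean count of 50, the joint fit or the block (0 to 5 with 1 library left out). The 4 genes on the low side were 2 with the block and 1 by limma on gene means (1 to 4 with 1 library left out), and the single gene on the high side was 0 with a minimum mean count of 50 or the block and 2 without a limit on ranks (0 to 1). For DMSO against T0, 13 lower guides became 25 with DESeq2 and 2 with the block (6 to 20 with 1 library left out), and 10 higher ones became 6 with a minimum mean count of 50, 21 with DESeq2 and 18 in the joint fit (6 to 45). The 4 genes on the low side were 2 by limma (4 to 5), and the 4 on the high side 1 with a minimum mean count of 50 and 2 in the joint fit (2 to 4). For GSI against T0, 16 lower guides became 28 with DESeq2 and 2 with the block (8 to 30), and 11 higher ones became 7 with non-targeting controls or a minimum mean count of 50, 18 with DESeq2 and 4 with the block (3 to 53). The 3 genes on the low side were 6 with library totals and 5 with a minimum mean count of 50 or the block (3 to 5), and the 2 on the high side were 1 with the block and 4 by limma (1 to 5).

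The median of the import guides was -0.23 to -0.03 for GSI against DMSO, -0.11 to 0.33 for DMSO against T0 and -0.25 to 0.20 for GSI against T0 with 1 library left out, and under other size factors it followed the median of all guides, at -0.29 against -0.22 (GSI against DMSO, library totals), -0.31 against -0.26 (DMSO against T0, non-targeting controls) and -0.40 against -0.22 (GSI against T0, non-targeting controls). With the replicate block it was 0.26 for DMSO against T0 and 0.14 for GSI against T0. The T0 aliquots were taken before the split into cultures, so a T0 number marks no partner of a culture. Culture replicate 3 has no T0 aliquot of its number and adds nothing to the difference in that block. The replicate numbers are no documented pairing. Same-numbered GSI and DMSO cultures had correlations of 0.28, 0.06 and 0.12 between their deviations from the group means. Those of differently numbered cultures were lower, at -0.161 to 0.0455. The block was not used for the main results because no pairing is documented, and whether the GSI and DMSO cultures were paired was not tested. The median of TIMM50 for GSI against DMSO was -0.081 with library totals and -0.036 to 0.39 with 1 library left out (lowest without DMSO replicate 3). For DMSO against T0, that of TIMM13 was -0.23 with non-targeting controls, -0.049 with the authors' factors (an alternative chosen after seeing the data) and -0.41 to 4.06 with 1 library left out (without DMSO replicate 3 and T0 replicate 1), and that of TOMM34 was 0.28 with no filter, 0.68 with the block, 1.23 by limma on gene means and -0.38 to 5.09 with 1 library left out (0.05 without DMSO replicate 1, 0.01 without DMSO replicate 3, 5.09 without T0 replicate 1). For all these changes the cause was not tested, beyond the fewer guides or libraries that some settings hold. With a T0 aliquot left out, the lone aliquot is assumed to vary like the cultures.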

Other observations

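Among the import guides, the 5 that were lower in GSI than in DMSO cultures at an unadjusted p under 0.05 all came from part B of the library (5.75% of its import guides, against 1.97% of all its guides), with 0 from part A (against 1.02%). The median log2 fold change was -0.32 over the 87 tested import guides of part B, against -0.08 over all guides of that part, and 0.03 over the 90 of part A, against 0.03. GSI replicate 1 ranked the import guides most like DMSO replicate 1 (Spearman's rho 0.81 over 186 guides, and 0.828 over all guides), above its rho with GSI replicates 2 and 3 (0.775 and 0.723). These guides share 1 transduced pool, and the difference between parts was not tested.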
